A study of Saccharomyces cerevisiae with 8 samples.

Results

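The genes described here are 10 yeast genes of a-type mating identity and the pheromone response: MFA1, MFA2, STE2, STE6, BAR1, AGA1, AGA2, ASG7, FUS1 and GPA1. They were chosen by their systematic names, and all 10 were among the 11844 features of the deposited table, of which 5942 are protein-coding genes by RefSeq. The cells were budding yeast of the haploid strain BY4741, a MATa strain that carries his3Δ1, leu2Δ0, met15Δ0 and also ura3Δ0 in every group. Wild-type cells (WT) were compared with upf1 cells, in which UPF1, the helicase of nonsense-mediated decay, is replaced by kanMX4. Cultures in YPD at 30 °C were taken at an OD600 of 0.5 and were given for 15 minutes either 100 µg/ml of cycloheximide (CHX), which stops ribosomes as they elongate, or DMSO in equal amount. No mating pheromone is named in the labels. Total RNA was digested with Terminator, a nuclease that digests decapped RNA from its 5′ end and leaves RNA with a cap, and stranded libraries were sequenced, 2 biological replicates in each of the 4 groups. Undigested libraries were not analysed here, and more RNA, a larger capped share of it and more cells that express a gene cannot be told apart.

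Haploid yeast cells of mating type a secrete a-factor, a short prenylated peptide, and carry a receptor for the α-factor of the other mating type. The a-specific genes are switched on by the transcription factor Mcm1 and, in α cells, are shut off by the repressor α2, which binds beside Mcm1. When pheromone binds the receptor, a G protein releases its βγ subunits, a MAP kinase cascade is activated, and the factor Ste12 raises the transcription of genes for agglutination, cell fusion and feedback.

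The motifs known for these factors were looked up first. In the R64 genome, the window from 400 to 101 bases before each start codon was searched on both strands for the α2 hexamer CATGTA, the Mcm1 motif CCNNNNNNGG and the Ste12 motif TGAAACA. The hexamer followed after 4 or 5 bases by the Mcm1 motif was found in 7 of the 10 windows and in 11 of 6020 windows of protein-coding genes, 0.183% of all. The 7 were the a-specific genes MFA1, MFA2, STE2, STE6, BAR1, AGA2 and ASG7, and the windows of AGA1, FUS1 and GPA1 held no such pair. Mcm1 and α2 were already known to act on a-specific genes, so this count is a description and no independent test of the group. The stretches below show the pair on the strand of each gene, 5′ to 3′, with CATGTA or its reverse complement and CCNNNNNNGG in capitals and 11 further bases on the Mcm1 side.
MFA1 (chrIV:1384941-1384972, plus strand): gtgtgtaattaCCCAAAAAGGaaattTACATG
MFA2 (chrXIV:352163-352193, plus strand): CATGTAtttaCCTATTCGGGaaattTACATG
STE2 (chrVI:82351-82382, plus strand): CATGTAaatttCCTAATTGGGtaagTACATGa
STE6 (chrXI:46477-46507, minus strand): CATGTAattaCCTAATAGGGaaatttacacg
BAR1 (chrIX:322078-322108, plus strand): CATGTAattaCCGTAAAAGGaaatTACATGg
AGA2 (chrVII:437101-437131, minus strand): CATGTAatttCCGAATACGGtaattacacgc
ASG7 (chrX:101905-101936, minus strand): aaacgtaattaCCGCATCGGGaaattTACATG
In MFA2, STE2 and BAR1 a second CATGTA faces the first across the Mcm1 motif. The other 4 windows with the pair belonged to MOG1, NTG2, NGL1 and YHR054C, which were found by the search alone. NTG2 and NGL1 are neighbours that share their upstream region.

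TGAAACA was found in 8 of the 10 windows, against 7.62% of all windows. At least 2 copies stood in 5 of the 10, those of MFA2, STE2, BAR1, AGA2 and FUS1, against 0.449% of all windows. The motifs can overlap other matches, and a match is a description of the letters, not of binding. The stretches of FUS1 and AGA1, which lack the CATGTA pair, are given with TGAAACA in capitals.
FUS1 (chrIII:71606-71659, plus strand): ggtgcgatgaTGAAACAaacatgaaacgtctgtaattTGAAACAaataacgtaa
AGA1 (chrXIV:703487-703513, plus strand): cataattttcTGAAACAatattaaaac

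**Figure D1:**
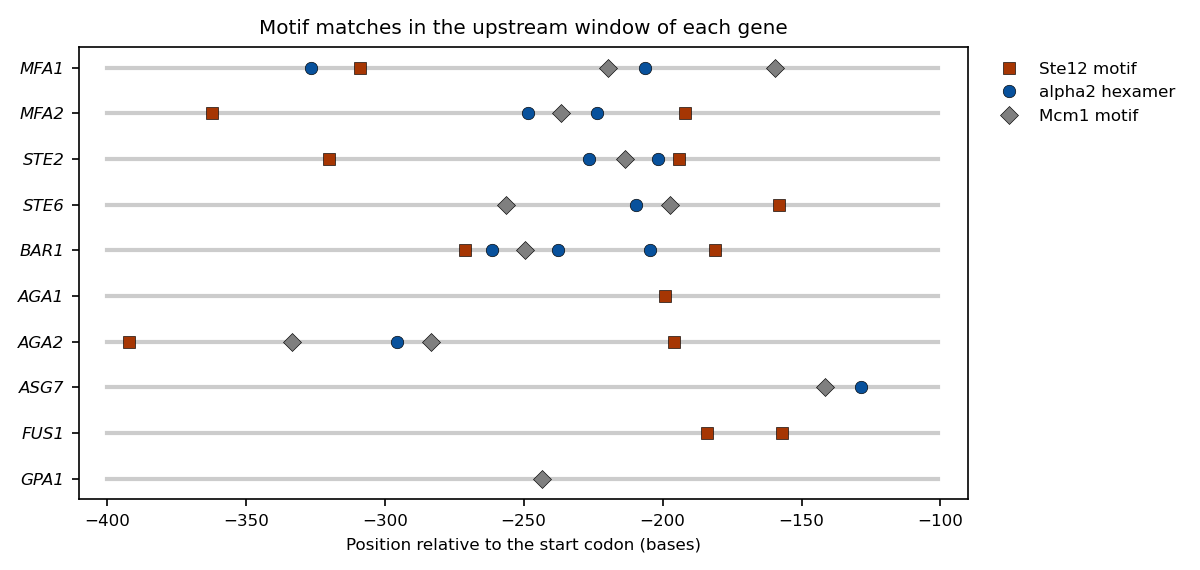
Centres of the motif matches by distance from the start codon (horizontal axis, bases) in the window of each of the 10 genes, one row a gene, with squares for the Ste12 motif, circles for the α2 hexamer and diamonds for the Mcm1 motif. The hexamer lies beside a diamond in the 7 a-specific genes, and the rows of AGA1, FUS1 and GPA1 have no circle.

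Values are given as scaled reads per kb, which is the deposited density times 1000. The libraries held 1310994 to 5689067 reads assigned to the listed features, and the median over protein-coding genes was 7 to 100 reads. UPF1 is listed as NAM7. It stood with DMSO at 14.8 and 15.2 (WT) and 5.94 and 2.80 (upf1), and with CHX at 83.5 and 44.8 (WT) and 13.5 and 10.1 (upf1), so that each upf1 library was below each WT library. Its difference in upf1 was -1.46 without CHX (limma adjusted p = 0.0439), a call that ended without any 1 of the 8 libraries, without the filter on low values, with a pseudocount of 5 and when only the DMSO libraries were fitted. With CHX its difference was -2.21 (adjusted p = 0.113), and it was called lower there by voom on recovered reads (-2.41, adjusted p = 0.00625), with equal protein-coding medians in all libraries (-2.90, adjusted p = 0.0270) and with quantile normalization (-2.65, adjusted p = 0.0424). Of the genes that mark α cells, the 2 α-factor genes had few reads: MF(ALPHA)1, an α-factor gene, had 0, 0, 0 and 4 reads in the WT libraries and 1, 1, 9 and 6 in the upf1 libraries, and MF(ALPHA)2 had 1 to 9 reads in each library. STE3, the receptor for a-factor, stood between 0 and 26.6 scaled reads per kb on 0 to 84 reads, and SAG1, the α-agglutinin, between 3.33 and 33.6 on 6 to 174 reads. In both upf1 DMSO libraries SAG1, at 20.8 and 13.1, lay above FUS1, ASG7 and GPA1. The a-factor genes MFA1 and MFA2 stood at or above 447 and 5023 in every library. HIS3 had reads in every library and rose by 1.40 ± 0.24 in upf1 without CHX (adjusted p = 0.0120), not without upf1 DMSO replicate 1, with equal medians (0.77, adjusted p = 0.0649) or when only the DMSO libraries were fitted. URA3, LEU2 and MET17 were looked for, were not matched to a listed feature and were not analysed here.

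The 2 a-factor precursor genes were the most abundant of the 10 in every group. MFA2 (YNL145W, R64 chromosome XIV, 352414 to 352530) stood with DMSO at 6745 and 6729 (WT) and 7061 and 5023 (upf1), and with CHX at 23713 and 20782 (WT) and 21798 and 24579.8 (upf1). It lay above 99.6% of protein-coding genes in WT DMSO, and its WT and upf1 values overlapped both without and with CHX. MFA1 (YDR461W, chromosome IV, 1385176 to 1385286) stood with DMSO at 929 and 753 (WT) and 447 and 465 (upf1), and with CHX at 2986 and 2712 (WT) and 1561 and 1933 (upf1). Both upf1 libraries lay below both WT libraries in each treatment. The reads behind these values were 77 to 699 a library for MFA1 and 716 to 8380 for MFA2.

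The receptor and the protease that removes its ligand are given next. STE2 (YFL026W, chromosome VI, 82580 to 83875), the α-factor receptor, stood with DMSO at 335 and 376 (WT) and 456 and 358 (upf1), and with CHX at 1741 and 1359 (WT) and 1689 and 1681 (upf1). Its genotypes overlapped and its treatments did not. BAR1 (YIL015W, chromosome IX, 322342 to 324105), the secreted protease that degrades α-factor, stood with DMSO at 68.5 and 77.4 (WT) and 88.1 and 64.7 (upf1), and with CHX at 312 and 283 (WT) and 314 and 319.6 (upf1). The CHX values of BAR1 were also apart from its DMSO values in both genotypes.

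AGA1 and AGA2 encode the 2 subunits of a-agglutinin, the adhesin on the cell wall. AGA1 (YNR044W, chromosome XIV, 703699 to 705876), the anchor subunit, stood with DMSO at 90.5 and 77.9 (WT) and 59.9 and 61.4 (upf1), and with CHX at 218 and 219 (WT) and 143 and 141 (upf1). AGA2 (YGL032C, chromosome VII, 436570 to 436833), the binding subunit, stood with DMSO at 143 and 138 (WT) and 118 and 92.4 (upf1), and with CHX at 352 and 228 (WT) and 241 and 242 (upf1). For AGA1 the upf1 values lay below the WT values in both treatments, and for AGA2 they did so without CHX and overlapped with it.

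The remaining 4 genes had the lowest levels of the 10 in every group. STE6 (YKL209C, chromosome XI, 42423 to 46295), the transporter that exports a-factor, stood with DMSO at 20.4 and 18.8 (WT) and 23.5 and 15.3 (upf1), and with CHX at 50.4 and 41.8 (WT) and 64.4 and 59.4 (upf1). FUS1 (YCL027W, chromosome III, 71803 to 73341), a membrane protein of cell fusion, stood with DMSO at 7.29 and 7.57 (WT) and 6.82 and 5.57 (upf1), and with CHX at 25.1 and 20.1 (WT) and 40.4 and 28.0 (upf1). ASG7 (YJL170C, chromosome X, 101150 to 101779), an a-specific protein that acts on the Gβ subunit, had with DMSO 3 and 5 reads (WT) and 4 and 3 reads (upf1), and with CHX 22 and 28 (WT) and 8 and 40 (upf1). GPA1 (YHR005C, chromosome VIII, 113499 to 114917), the Gα subunit of the pheromone pathway, had with DMSO 6 and 6 reads (WT) and 10 and 7 (upf1), and with CHX 23 and 16 (WT) and 9 and 44 (upf1). Read counts this low leave the changes of ASG7 and GPA1 with an SE of 0.44 on the log2 scale, against 0.18 for MFA1 and MFA2.

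The order of levels, which are per length, was stable at its top and bottom. MFA2 was at the top, then MFA1, then STE2 in every group, with MFA1 at 841 ± 124 and STE2 at 355 ± 28.8 (SD, n = 2) in WT DMSO. In upf1 the ranges of MFA1 and STE2 overlapped, at 456 ± 13.1 and 407 ± 69.4 without CHX and at 1747 ± 263 and 1685 ± 5.06 with it. GPA1 was last in all 4 groups, and STE6 held rank 7. BAR1 and AGA2 overlapped in WT CHX, and so did STE6 and ASG7. The pairs ASG7 and FUS1 in WT DMSO and upf1 CHX, and ASG7 and GPA1 in upf1 DMSO, overlapped as well.

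**Figure D2:**
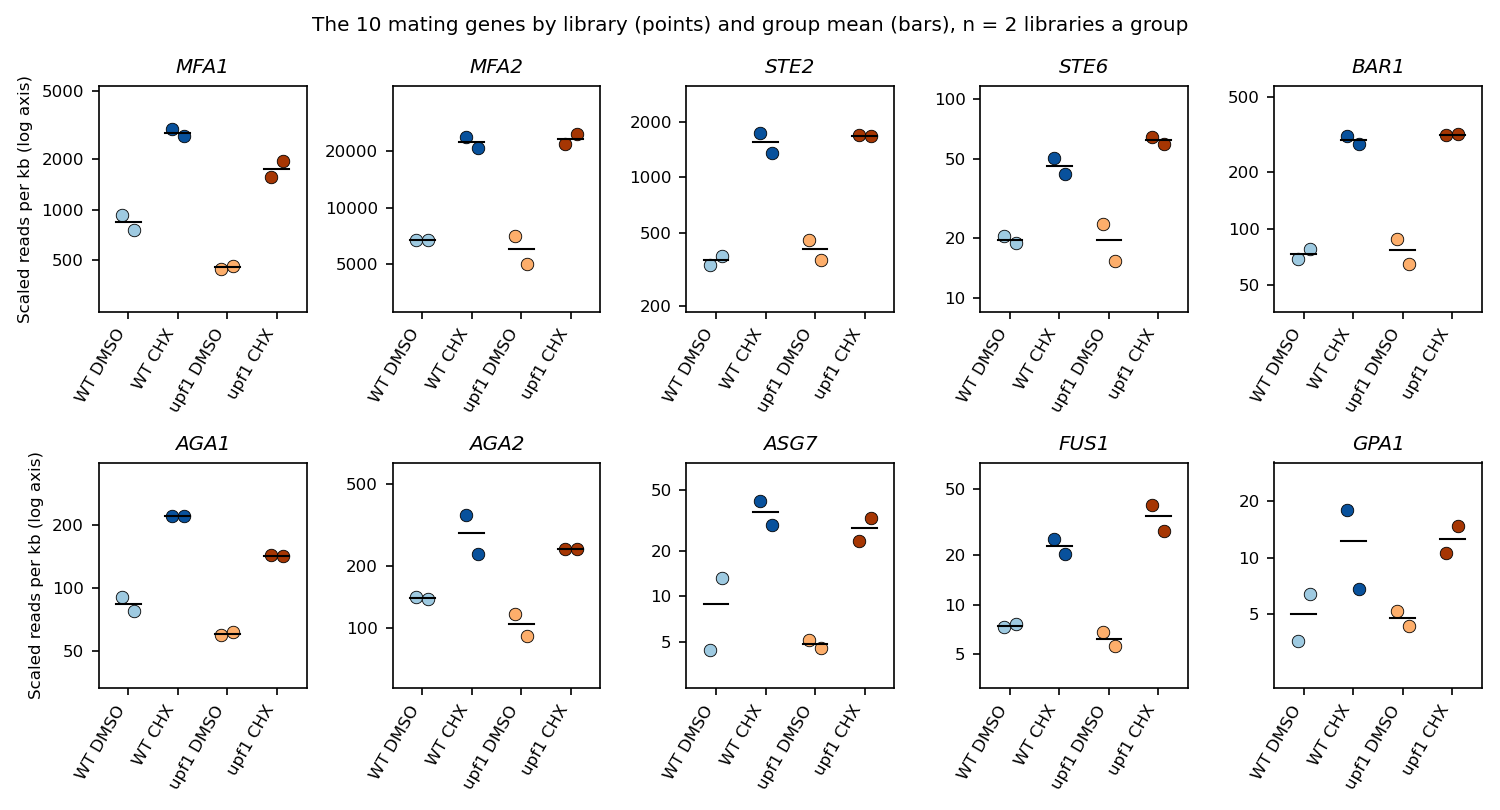
Scaled reads per kb (log axis) of the 10 genes in the 8 libraries, one panel a gene, with a point for each library and a bar for the mean of the 2 libraries of a group. CHX points lie above DMSO points of the same genotype in every panel, and the upf1 points of MFA1 and AGA1 lie below the WT points of the same treatment.

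The first comparison asked which capped RNAs stood higher after 15 minutes of CHX. In WT, 9 of the 10 genes rose, where 69.8% of all features tested rose and 0.106% fell. In all 10 both CHX values lay above both DMSO values, as in 85.9% of protein-coding genes. STE2 rose by 2.11 ± 0.19 on the log2 scale (SE, limma adjusted p = 0.000442), a 4.32-fold change, BAR1 by 2.00 ± 0.21 and ASG7 by 1.91 ± 0.44. MFA1 and MFA2 rose by 1.76 ± 0.18 and 1.72 ± 0.18. The agglutinin genes rose less, AGA1 by 1.36 ± 0.19 and AGA2 by 1.00 ± 0.25, and FUS1 and STE6 rose by 1.38 ± 0.29 and 1.15 ± 0.27. GPA1 changed by 0.94 ± 0.44 and did not pass (adjusted p = 0.0879). The median of the 10 genes was 1.55, beside 1.23 over the 5527 protein-coding genes tested. It was 1.37 over the highest of 4 equal classes of protein-coding genes by mean level. That class held 6 of the 10, of which 2, AGA1 and AGA2, lay below its median.

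Most of these rises were shared with the bulk of the transcriptome, so the changes were also read against it. When the median of protein-coding genes was made equal in all libraries, which lowered the changes in WT by 1.31, STE2 and BAR1 were the 2 of the 10 called higher, where 7.06% of all features were. Quantile normalization called 3, MFA1, MFA2 and STE2, where 6.04% of features were. With equal medians STE6 and AGA2 stood at -0.16 and -0.30, and with quantile normalization STE6, AGA1, AGA2 and FUS1 stood at -0.30, -0.01, -0.31 and -0.16. GPA1, which was not called, also fell below 0, to -0.62 at its lowest over the alternatives. The ASG7 call ended without WT CHX replicate 1 (1.66, adjusted p = 0.0573), and GPA1 passed without WT CHX replicate 2 (1.53, adjusted p = 0.0239).

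In upf1 cells, too, 9 of 10 genes rose on CHX, at 64.1% of all features higher and 0.154% lower, and all 10 had both CHX values above both DMSO values, as had 92.4% of protein-coding genes. FUS1, ASG7, STE2 and BAR1 rose by 2.13 ± 0.29, 2.12 ± 0.44, 2.05 ± 0.19 and 2.04 ± 0.21, followed by MFA2 and MFA1 at 1.96 ± 0.18 and 1.93 ± 0.18 and STE6 at 1.60 ± 0.27. AGA1 and AGA2 rose by 1.20 ± 0.19 and 1.20 ± 0.25, just under the protein-coding median of 1.25, while the 10 genes had a median of 1.94. GPA1 changed by 1.11 ± 0.44 (limma adjusted p = 0.0577) and passed without either WT CHX library (adjusted p = 0.0357 and 0.0352), by voom (1.43, adjusted p = 0.0206) and when only the upf1 libraries were fitted (adjusted p = 0.0334). With equal medians, which lowered the changes by 1.37, 1 of the 10 was called higher, STE2, where 1.3% of features were. Quantile normalization called 4, MFA1, MFA2, STE2 and BAR1, where 1.79% were. With equal medians AGA1 and AGA2 stood at -0.17 and -0.17, and at -0.07 and -0.04 with quantile normalization. GPA1 reached -0.26 at its lowest over the alternatives. No interaction of CHX with genotype was called by limma for the 10 genes or any other feature, and without adjustment 0 of the 10 and 944 features had p under 0.05. Voom on recovered reads called 0 features higher and 1 lower (0.00962%), which is not among the 10. The interaction of MFA1 was 0.16 ± 0.25 (adjusted p = 0.902).

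The second comparison set upf1 against WT, and without CHX it shares the WT DMSO libraries with the first. Without CHX the median change was -0.19 over the 10 genes and 0.51 over protein-coding genes, and all 10 lay below the protein-coding median. MFA1 was the one gene of the 10 called, where 14.7% of features were called higher and 0.395% lower. It fell by 0.87 ± 0.18 (limma adjusted p = 0.0203), to 456 ± 13.1 from 841 ± 124 scaled reads per kb (SD, n = 2), and its change lay at percentile 0.489 of protein-coding genes. ASG7, AGA1, AGA2, FUS1 and MFA2 had values of -0.54, -0.46, -0.42, -0.21 and -0.18 with adjusted p between 0.142 and 0.655. GPA1 and STE6 had -0.03 and -0.04, and BAR1 and STE2 0.05 and 0.19.

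The MFA1 call rested on few libraries. It ended without WT DMSO replicate 1 (-0.72, adjusted p = 0.0847), without upf1 DMSO replicate 1 (-0.84, adjusted p = 0.0957) and without upf1 DMSO replicate 2 (-0.90, adjusted p = 0.0508). It also ended when only the 4 DMSO libraries were fitted (adjusted p = 0.0958). In library values, upf1 lay wholly below WT for 4 genes, MFA1, AGA1, AGA2 and FUS1, where 3.42% of protein-coding genes did so, and wholly above WT for 0 of the 10, where 56.5% of protein-coding genes did. FUS1 had few reads there, 12 and 7 (WT) and 13 and 9 (upf1), and its nearest values were 7.29 (WT) and 6.82 (upf1).

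With equal protein-coding medians, which lowered the changes by 0.63, 4 of the 10 genes were lower in upf1 without CHX, where 0.924% of features were. They were MFA1 at -1.50, AGA1 at -1.08, AGA2 at -1.05 and MFA2 at -0.80, with adjusted p of 0.0200, 0.0470, 0.0282 and 0.0376. Quantile normalization called 2, MFA1 and AGA2, where 0.76% of features were lower. When protein-coding genes were split into 4 equal classes by mean level, class 4, the highest, held MFA1, MFA2, STE2, BAR1, AGA1 and AGA2, its median change was 0.44, and all 6 lay below it.

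With CHX the libraries are others, and the 10 genes again all lay below the protein-coding median, 0.58, with a median of 0.08. MFA1 had -0.71 ± 0.18 and AGA1 -0.62 ± 0.19, with limma adjusted p of 0.129 and 0.140, and these 2 were the genes whose upf1 values lay wholly below WT, where 3.91% of protein-coding genes did so. STE6, FUS1 and BAR1 lay wholly above WT, at 0.41, 0.54 and 0.09, where 66.5% of protein-coding genes did. With equal medians they stood at -0.27, -0.14 and -0.59, and with quantile normalization at -0.07, 0.11 and -0.14. Limma called 0 of the 10 genes, at 0.0481% of features higher and 0.0385% lower, while 2 of the 10 had p under 0.05 without adjustment. Voom on recovered reads called MFA1 and AGA1 lower (-0.68 and -0.62, adjusted p = 0.0472 and 0.0492), where 0.645% of features were lower. In that highest class the median change was 0.30, with all 6 genes below it. FUS1 lay above the protein-coding median when WT CHX replicate 2 or upf1 CHX replicate 2 was left out.

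**Figure D3:**
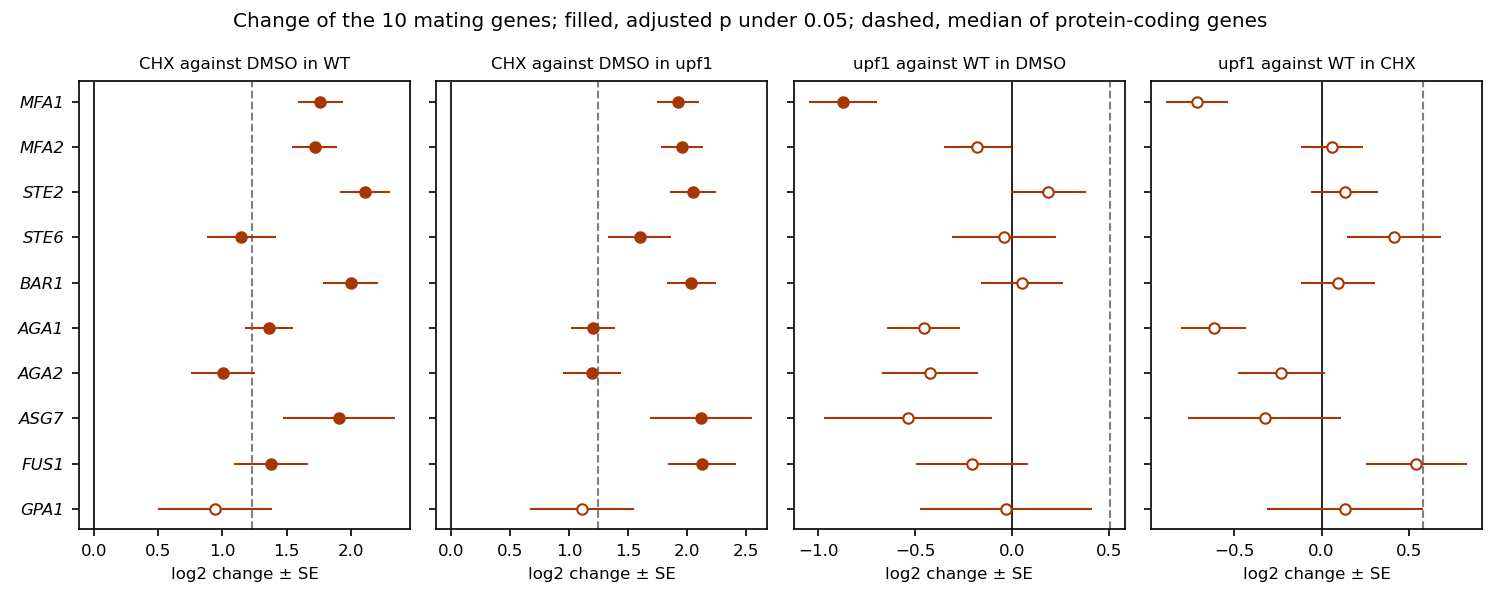
Log2 change ± SE (horizontal axis) of the 10 genes in the 4 pairwise comparisons, filled where limma gave an adjusted p under 0.05, with the median of protein-coding genes as a dashed line. In both upf1 panels every gene lies left of the dashed line, and MFA1 lies at -0.87 without and -0.71 with CHX. In the CHX panels the genes lie right of 0 on the deposited scaling. With quantile normalization STE6, AGA1, AGA2, FUS1 and GPA1 fall below 0 in WT.

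The ratio of MFA2 to MFA1 within a library does not depend on the library factor. With DMSO it was 7.26 and 8.93 (WT) and 15.8 and 10.8 (upf1), and with CHX 7.94 and 7.66 (WT) and 14.0 and 12.7 (upf1). The WT values ended at 8.93 and the upf1 values began at 10.8. The upf1 to WT ratio of the geometric means was 1.66, with an exact two-sided permutation p of 0.0556 over 36 arrangements within treatments, the smallest that this design allows. It was chosen after its values were seen and has an adjusted p of 0.167 over the 3 ratios by Benjamini-Hochberg (exact permutation). The other 2 ratios overlapped between the genotypes. AGA1 to AGA2 had geometric means of 0.680 in WT and 0.585 in upf1, with an exact permutation p of 0.278. STE2 to BAR1 had geometric means of 5.02 and 5.34, with an exact permutation p of 0.222.

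The windows upstream of these 2 a-factor genes are printed in full. Whether they bear on the upf1 values of MFA1 and MFA2 was not tested. Capitals mark TGAAACA, or its reverse complement TGTTTCA, and the pair of CATGTA and CCNNNNNNGG with the bases between and the facing hexamer.
MFA1 (chrIV:1384776-1385075, plus strand): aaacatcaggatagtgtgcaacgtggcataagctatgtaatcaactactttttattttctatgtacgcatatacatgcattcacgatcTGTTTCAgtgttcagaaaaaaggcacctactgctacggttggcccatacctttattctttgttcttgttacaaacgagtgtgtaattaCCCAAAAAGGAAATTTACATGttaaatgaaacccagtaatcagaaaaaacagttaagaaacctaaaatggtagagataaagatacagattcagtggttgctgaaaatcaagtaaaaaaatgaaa
MFA2 (chrXIV:352014-352313, plus strand): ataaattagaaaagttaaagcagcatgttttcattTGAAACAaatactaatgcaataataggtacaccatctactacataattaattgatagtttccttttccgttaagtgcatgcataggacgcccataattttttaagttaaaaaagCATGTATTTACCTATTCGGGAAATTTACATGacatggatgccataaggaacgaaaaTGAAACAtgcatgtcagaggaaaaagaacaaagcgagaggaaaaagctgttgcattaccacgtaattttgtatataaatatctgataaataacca
MFA2 has TGAAACA at 365 and 195 bases before its start codon, and MFA1 has 1 match, at 312 bases on the other strand.

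**Figure D4:**
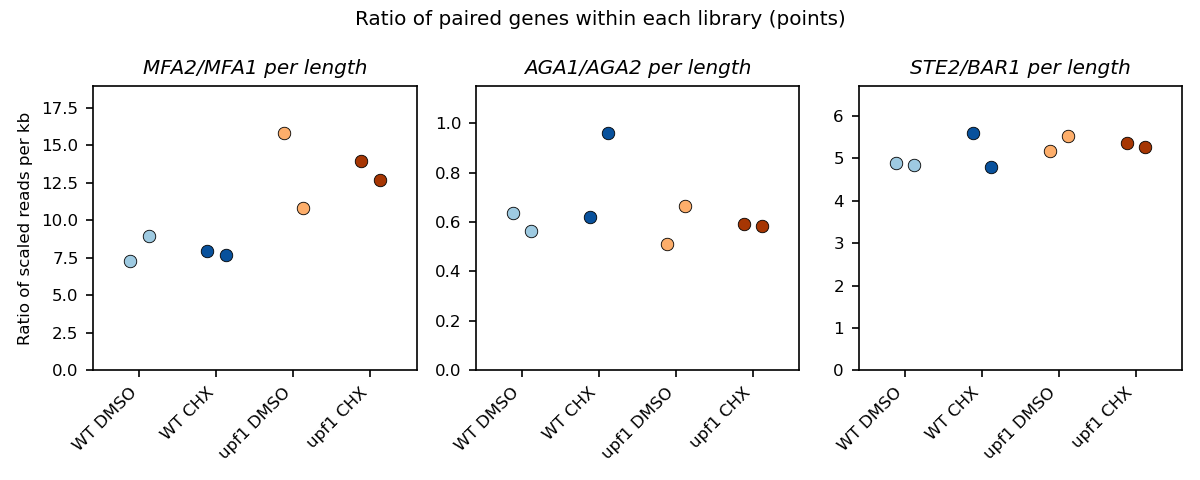
Ratio of scaled reads per kb (vertical axis) within each of the 8 libraries for MFA2 to MFA1, AGA1 to AGA2 and STE2 to BAR1, with a point for each library. The 4 upf1 points of MFA2 to MFA1 lie between 10.8 and 15.8, above the WT points, and the other 2 ratios overlap.

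The genes that act with the 10 were read from lists written from general knowledge, with earlier results of these data known. Their counts stand beside 69.8% of all features called higher on CHX in WT, 64.1% in upf1 and 14.7% in upf1 without CHX. Of 7 genes for the maturation of a-factor (prenylation, cleavage and methylation), 6 rose on CHX in WT and 6 in upf1, at medians of 1.15 and 1.31. RCE1, the CAAX protease, rose by 1.72 and 1.47, and STE14, the methyltransferase, by 1.58 in upf1. With equal medians RCE1 stood at 0.41 and 0.10 and STE14 at 0.21, with adjusted p between 0.189 and 0.811. RAM2, a subunit of the farnesyltransferase, rose by 1.29 on CHX in WT, where it stood at -0.01 with equal medians and -0.03 with quantile normalization. In upf1 without CHX RAM2 rose by 0.92 ± 0.16 (limma adjusted p = 0.0117), from 170.1 ± 1.28 to 324 ± 13.3 scaled reads per kb (SD, n = 2). This call ended with equal medians (0.29, adjusted p = 0.423), with quantile normalization (0.53, adjusted p = 0.150), without upf1 DMSO replicate 1 and when only the DMSO libraries were fitted. STE23, a protease that cuts the precursor, had 0.50 in that comparison (adjusted p = 0.177). With equal medians and with quantile normalization no gene of the 7 was called higher on CHX by limma. STE24, another protease of the precursor, had 0.56 and 0.41 on the deposited scaling (adjusted p = 0.0385 and 0.103). It was called lower in both genotypes with equal medians, where 3.23% and 1.89% of features were, and with quantile normalization, where 5.3% and 1.15% were.

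All 19 signalling genes could be tested, and 15 rose on CHX in WT (9 without WT CHX replicate 1) and 15 in upf1 (9 without upf1 CHX replicate 1), at medians of 1.50 and 1.43. FUS3, the MAP kinase, rose by 1.89 and 2.06, and DIG1, an inhibitor of Ste12, by 1.83 and 1.77. STE4, the Gβ partner of Gpa1, rose by 2.02 and 1.76, a call in upf1 that needed both upf1 DMSO replicate 2 and upf1 CHX replicate 1. SST2, the regulator that speeds GTP hydrolysis by Gpa1, rose by 1.53 and 1.61. With equal medians these calls ended, with FUS3 at 0.58 and 0.69, DIG1 at 0.52 and 0.40, STE4 at 0.71 and 0.40 and SST2 at 0.22 and 0.24 (adjusted p between 0.102 and 0.600), and they also ended with quantile normalization. With equal medians 1 of the 19, MSG5, a phosphatase that acts on Fus3, was called higher on CHX in WT. With quantile normalization none of the 19 was, and in upf1 none was with either scaling. STE18, the Gγ subunit, rose by 1.57 in WT, a call that ended without WT DMSO replicate 1 or either WT CHX library and with equal medians (0.26, adjusted p = 0.783). In upf1 STE18 had 1.30 (adjusted p = 0.0631), which passed without either WT DMSO library or upf1 CHX replicate 2. STE12 had 0.58 in WT, which passed without WT DMSO replicate 2 (1.08), and 0.66 in upf1, which passed without either WT DMSO library and by voom (0.76, adjusted p = 0.0483). In upf1 without CHX the median was 0.41, and 1 gene was called, BEM1, a scaffold of cell polarity, at 1.10 (adjusted p = 0.0461), while KSS1, the second MAP kinase, had 1.34 (adjusted p = 0.0506). The BEM1 call ended without any 1 of the 8 libraries, with equal medians (0.47, adjusted p = 0.340), with quantile normalization (0.41, adjusted p = 0.448), at a pseudocount of 5, under either other filter and when only the DMSO libraries were fitted. KSS1 passed at a mean filter of 10 (limma adjusted p = 0.0418) and at a pseudocount of 0.5 (limma adjusted p = 0.0470). Without WT DMSO replicate 1 KSS1 had 1.71. Reads were few in the WT DMSO libraries, 8 and 2 for KSS1, 5 and 4 for BEM1 and 2 and 3 for STE18.

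Of 14 genes induced by pheromone or used in fusion, 8 were matched and passed the filter on low values, so that counts over these 8 describe only the better-read genes: 6 rose on CHX in WT and 6 in upf1 (3 without upf1 CHX replicate 2), beside the 69.8% and 64.1% of all features. PRM5 rose on CHX by 3.93 ± 0.26 in WT cells (limma adjusted p = 0.000274) and by 3.59 ± 0.26 in upf1 cells, from 5.37 ± 1.52 to 109 ± 0.158 and from 9.45 ± 0.568 to 137 ± 24.4 scaled reads per kb (SD, n = 2). With equal medians PRM5 was the 1 gene of the 8 called higher on CHX in each genotype, at 2.62 and 2.23 (adjusted p = 0.00627 and 0.0160). FIG2, a cell wall adhesin of mating, rose on CHX by 2.12 in WT cells, where it stood at 0.81 with equal medians (adjusted p = 0.0608). FIG2 was higher by 1.37 ± 0.25 in upf1 without CHX (adjusted p = 0.0140), a call that ended with equal medians (0.74, adjusted p = 0.117), with quantile normalization (0.77, adjusted p = 0.125), without upf1 DMSO replicate 1 and when only the DMSO libraries were fitted. PRM1, a fusion protein, had -1.15 in that comparison (adjusted p = 0.0825) and was called lower there with equal medians (-1.77, adjusted p = 0.0471), with quantile normalization (-1.85, adjusted p = 0.0364) and by voom (-1.78, adjusted p = 0.0439). PRM1 rose by 2.29 on CHX in upf1, a call that ended with equal medians (0.92, adjusted p = 0.239) and with quantile normalization (1.03, adjusted p = 0.193). With DMSO PRM1 had few reads, 18 and 7 (WT) and 9 and 2 (upf1). FUS2, a fusion protein, had 0 to 6 reads a library and was under the filter.

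Of 4 α-specific genes 2 rose on CHX in WT (1 without either WT CHX library) and 3 in upf1 (1 when upf1 DMSO replicate 2, or else upf1 CHX replicate 1, was left out). STE3, the a-factor receptor, rose by 2.70 and 2.34 on CHX in WT and upf1, from 0.469 ± 0.663 to 13.8 ± 2.72 and from 3.22 ± 1.18 to 24.3 ± 3.36 scaled reads per kb (SD, n = 2). With equal medians STE3 was called in WT (1.39, adjusted p = 0.0415) and not in upf1 (0.98, adjusted p = 0.180). In upf1 without CHX STE3 had 1.09 (adjusted p = 0.0753), which passed by voom (adjusted p = 0.0472) and at a pseudocount of 0.5 (2.10, adjusted p = 0.0496). SAG1 rose by 1.11 on CHX in WT, not without either WT CHX library or WT DMSO replicate 2 or when only the WT libraries were fitted, and stood at -0.20 with equal medians and -0.51 with quantile normalization. In upf1 without CHX SAG1 rose by 1.45 (limma adjusted p = 0.0316). This ended with equal medians (0.83, adjusted p = 0.232), with quantile normalization (0.73, adjusted p = 0.247), without upf1 DMSO replicate 1, WT DMSO replicate 2 or any 1 CHX library and when only the DMSO libraries were fitted. MF(ALPHA)2 rose by 1.55 on CHX in upf1 on 1 to 9 reads a library, not without either upf1 CHX library or upf1 DMSO replicate 2 and not with equal medians (0.18, adjusted p = 0.845).

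Of 11 regulators, 9 were tested, and 7 and 9 rose on CHX in WT and upf1 (5 in upf1 without upf1 DMSO replicate 2 and 4 without upf1 CHX replicate 1). MCM1 rose by 1.62 and 1.66, the latter not without upf1 CHX replicate 1. TUP1 and CYC8, which form the co-repressor used by α2, rose by 1.42 (-0.01 for TUP1 with quantile normalization) and 1.89 in WT, and RME1, a repressor of meiosis, rose by 1.63 in upf1. With equal medians these calls ended, with MCM1 at 0.31 and 0.29, TUP1 and CYC8 at 0.11 and 0.59 and RME1 at 0.26 (adjusted p between 0.325 and 0.747). In upf1 without CHX none of the 9 was called by limma, with 4 under 0.05 without adjustment, and RME1 and HO, the endonuclease of mating-type switching, had 0.89 and 0.80. RME1, with an adjusted p of 0.0535, passed at a mean filter of 10 (adjusted p = 0.0388) and at a pseudocount of 0.5 (0.93, adjusted p = 0.0469). MCM1 had -0.06 there and -0.03 with CHX. The 3 genes with the upstream pair that are outside the 10 and were tested, MOG1, NTG2 and NGL1, had 0.88, 1.39 and 0.54 in upf1 without CHX, with adjusted p between 0.0724 and 0.463.

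**Figure D5:**
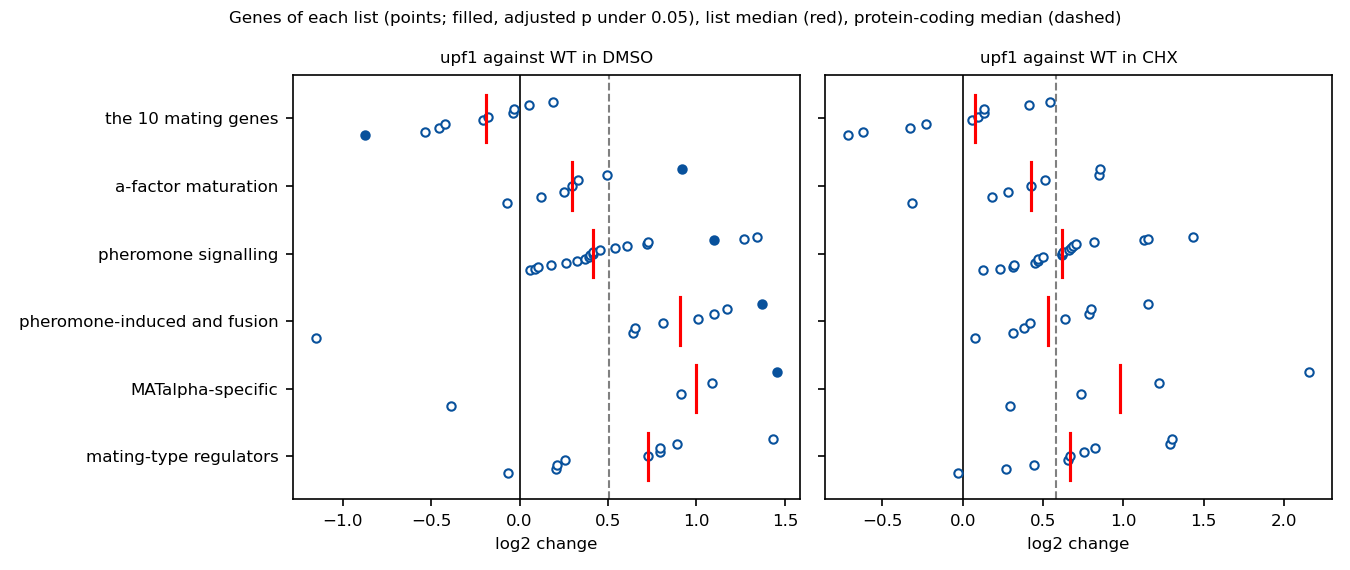
Log2 change of upf1 against WT (horizontal axis) without and with CHX, a point for each tested gene, filled where limma gave an adjusted p under 0.05, one row a list, with the list median in red and the protein-coding median dashed. The 10 mating genes have medians of -0.19 and 0.08, left of the dashed lines at 0.51 and 0.58. The other lists have medians between 0.30 and 1.00. Of these, a-factor maturation also lies left of the line in both panels, at 0.30 and 0.42. Pheromone signalling does so without CHX, at 0.41, and the pheromone-induced list with CHX, at 0.53.

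Among themselves the 10 genes did not move as one. On log2 values relative to the protein-coding median of each library, over 8 libraries that share 4 groups, the correlation was highest for STE2 and BAR1 (r = 0.983) and for MFA2 and BAR1 (r = 0.954), and it was 0.920 for AGA1 and AGA2. GPA1, with few reads, had the lowest values, 0.100 with STE2, 0.136 with BAR1 and 0.176 with FUS1, and ranged up to 0.808 with AGA2, while STE2 and AGA2 had 0.339. Outside the 10, the protein-coding genes most like their mean were VTC1, PHO84, YAH1, GTT3 and HEM13, with r of 0.971 to 0.950 over the 8 libraries. These r values are descriptions over libraries that differ by treatment and genotype. In upf1 against WT without CHX these 5 genes had values from -0.25 (GTT3) to -0.0034 (YAH1), and PHO84, the phosphate transporter, had -0.17. The 5 were picked by their likeness in the same libraries, so these values are no separate result.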

How the data were processed

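The submitters' processing notes name featureCounts 2.0.0, HISAT2 2.2.0, DESeq2, R64 and also Trim Galore, with no role for each. Per the labels' protocols, 1.5 µg of total RNA with 3 µl of ERCC spike-in mix was digested with 1 unit of Terminator for 1 h at 30 °C. The authors deposited a signal table of normalized densities with a column for each library and for each group mean. The group means were not used. Library factors and feature lengths are not given in the sources used here. For each feature with a value above 0 a length was found at which its values were whole reads times 1 factor per library, within 0.001 reads. This gave the read counts, whole for 100% of features with reads.

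Limma 3.58.1 in R 4.3.3 was run on log2 of the scaled reads per kb plus 2, a scale that understates the change of low genes. Features with a mean of at least 2 over the 8 libraries entered, 10392 in all, without ribosomal RNA. The fit had a mean for each of the 4 groups, a variance trend and 4 residual degrees of freedom. P-values were two-sided and adjusted by Benjamini-Hochberg over all features, with a threshold of 0.05. The code was tested on simulated data. The genes and lists were chosen with earlier results of these data known. Besides the 10 genes and a few fixed partners, the text names the 2 genes of smallest p of each list in 3 comparisons. MSG5, STE24 and some others are named outside this rule. The 5 most alike genes were taken by Pearson r. Upstream sequences were read from RefSeq R64. The series' design text calls the replicates biological, and p-values measure the spread between these libraries.

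Alternatives were other pseudocounts and filters, protein-coding median and quantile scaling, voom on the recovered reads, the replicate number as a block, fits of only the groups compared, and leaving out each library.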

Additional observations from a re-analysis of the deposited data

Results flagged for a closer look

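On the deposited scaling FUS1 lay lower in upf1 than in WT without CHX (-0.21) and higher with CHX (0.54), in every library of each pair. With equal protein-coding medians its genotype difference was below 0 in both treatments, at -0.83 and -0.14, and with quantile normalization it was -0.89 and 0.11. The test of that difference, the interaction of CHX with genotype, gave 0.75 ± 0.41 on the log2 scale (SE) and did not pass (limma adjusted p = 0.640). The values rest on 7 to 83 reads a library.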

How the results depend on the processing

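Of the 10 genes in the 5 comparisons, every call and its direction was kept with pseudocounts of 0.5 and 5, without the filter and with the replicate block. The filter at a mean of 10 left out GPA1 and changed no other call. The replicate numbers were not taken to pair the libraries: deviations from group means of same-numbered libraries correlated by -0.04 to 0.12 across features. With the replicate block the counts stayed at 9, 9, 1 and 0 genes, while in upf1 without CHX KSS1 (adjusted p = 0.0389) and STE3 (0.0461) passed and BEM1 (0.0542) did not. With protein-coding median scaling the genes called higher on CHX numbered 2 in WT and 1 in upf1, and those lower in upf1 without CHX 4. STE6 and AGA2 in WT turned to -0.16 and -0.30, and AGA1 and AGA2 in upf1 to -0.17 and -0.17. With quantile normalization these counts were 3, 4 and 2. STE6, AGA1, AGA2 and FUS1 in WT turned to -0.30, -0.012, -0.31 and -0.16, and AGA1 and AGA2 in upf1 to -0.073 and -0.043. GPA1, not called on the deposited scaling, went as low as -0.62 in WT and -0.26 in upf1 with these 2 scalings. Among other genes, RAM2 and SAG1 in WT turned to -0.014 and -0.20 with median scaling and to -0.031 and -0.51 with quantile normalization, TUP1 in WT to -0.010 with the latter, and NAM7 in upf1 to -0.22 and -0.098. By their construction, these 2 scalings take the shared change of the scaled values off each value. Voom on the recovered reads called 7167 and 7341 of 10392 features higher on CHX in WT and upf1. Of the 10 genes it called 2 lower in upf1 with CHX, MFA1 and AGA1, and GPA1 higher on CHX in upf1 (1.43, adjusted p = 0.0206), and the cause was not tested. Fits of only the libraries compared called GPA1 there too (adjusted p = 0.0334), and 0 of the 10 lower in upf1 without CHX. Leaving out each library gave 8 to 10 genes higher on CHX in WT, 9 to 10 in upf1, and 0 to 1 lower in upf1 without CHX. The count of genes below the protein-coding median in upf1, an addition made after seeing the data, was 9 to 10 in both treatments under all alternatives, with STE2 above it without CHX by quantile normalization and FUS1 with CHX when replicate 2 of WT CHX or of upf1 CHX was left out. GPA1 was untested at the filter of 10. ASG7 and GPA1 rest on 3 to 10 reads a library with DMSO, which limits the precision of their changes.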
